A study of Mus musculus with 6 samples.

Results

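The 10 genes described here encode proteins of the PIWI-interacting RNA (piRNA) pathway and of germ granules: Mael, Ddx4, Tdrd1, Tdrd9, Tdrd12, Piwil2, Mov10l1, Gtsf1, Asz1 and Tdrkh. They were chosen by name, and their rows were found in the count table through their Entrez identifiers, 10 of 24421 genes in all. The values are RNA levels relative to the size of each library after TMM scaling, a correction of the library totals, and are not amounts per oocyte. RNA-seq was carried out on germinal vesicle (GV) oocytes, the fully grown oocytes still arrested before meiotic maturation, of female mice about 3 months old on a mixed FVB, 129/Sv and C57BL/6J background. SKO oocytes were Ring1 -/-; Rnf2 f/f, without a Cre transgene. DKO oocytes were Ring1 -/-; Rnf2 f/f; Zp3-cre, so Ring1 was null in both genotypes and the floxed Rnf2 was deleted by a Cre that is driven by an oocyte promoter during growth. Each genotype had 3 libraries, each made from 15 oocytes of a single mouse after the surrounding granulosa cells were pipetted off. Because only DKO carried the transgene, its own effect and that of the deletion cannot be told apart.

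Ring1 and Rnf2 are the E3 ligases of Polycomb repressive complex 1 (PRC1), which ubiquitinates histone H2A. A variant of this complex, PRC1.6, contains Pcgf6, L3mbtl2, E2f6 and the pair Mga and Max, and is known for silencing germline genes in embryonic cells. piRNAs are small RNAs that guide PIWI proteins to transposon transcripts in the germ line. Their precursors are cut on mitochondria, and the amplification loop that follows takes place in germ granules, where Tudor-domain proteins hold PIWI proteins and helicases together. In mice the pathway is essential in the male germ line, whereas female mice lacking most of its components remain fertile, and oocytes also use Dicer-dependent small interfering RNAs.

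Rnf2, the targeted ligase, fell from 190.0 ± 11.8 CPM (counts scaled to a fixed library size, SD, n = 3) in SKO to 36.6 ± 17.5 in DKO (log2 fold change -2.38, SE 0.30, edgeR adjusted p = 0.000349). Ring1 was at 1 to 13 counts in every library and was too low to be tested. Library totals were 15521975 to 26652745 counts, and 3 counts corresponded to 0.117 to 0.171 CPM. Of 14845 genes tested, 17.3% were called higher in DKO and 7.41% lower, at an adjusted p under 0.05 in edgeR's quasi-likelihood test. Of these calls 70% were higher, against 83% when libraries were scaled by their totals alone, a scaling that moved the median log2 fold change of all genes from 0.041 to 0.201. Of the oocyte markers fixed for the tissue check, 12 of 12 were detected and 7 were called lower (58.3%), with a summed level of 23020 to 24550 CPM in SKO and 12990 to 17810 CPM in DKO. Gdf9, Bmp15 and Padi6 were the most abundant of them.

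Promoter windows of 250 bases before an annotated transcript start were taken from RefSeq (GRCm38.p6) for 9 of the 10 genes, 12 windows in all. Some of these starts lie inside the gene span given below, so that their windows reach into it. The Mov10l1 window runs past the first base of its span, 88982891, and the Ddx4 window lies wholly within its span. Distances are to the start that follows each window. Piwil2 had no window. The letters searched were CACGTG, an E-box that reads the same on both strands and is the kind of site that Max-containing dimers recognise, and TCCCGC or its reverse GCGGGA, the core of an E2F6-type site. The windows of the members that were called higher, Mael and Mov10l1, are shown with those of the members with the smallest adjusted p among the lower ones, Gtsf1 and Tdrd12. Capitals mark matches to either set of letters, and each window is written 5′ to 3′ on the strand of its gene.
Mael, chr1:166238745-166238994, minus strand: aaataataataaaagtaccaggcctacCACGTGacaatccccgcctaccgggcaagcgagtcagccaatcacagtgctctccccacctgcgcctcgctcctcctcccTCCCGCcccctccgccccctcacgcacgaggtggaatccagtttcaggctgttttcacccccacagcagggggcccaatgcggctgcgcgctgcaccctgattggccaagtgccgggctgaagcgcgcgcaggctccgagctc
Mov10l1, chr15:88982744-88982993, plus strand: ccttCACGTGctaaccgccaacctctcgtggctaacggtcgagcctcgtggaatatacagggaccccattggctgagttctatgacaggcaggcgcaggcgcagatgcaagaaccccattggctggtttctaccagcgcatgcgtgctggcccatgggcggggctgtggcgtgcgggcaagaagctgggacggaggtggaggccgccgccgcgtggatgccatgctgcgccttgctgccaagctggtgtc
Gtsf1, chr15:103430428-103430677, minus strand: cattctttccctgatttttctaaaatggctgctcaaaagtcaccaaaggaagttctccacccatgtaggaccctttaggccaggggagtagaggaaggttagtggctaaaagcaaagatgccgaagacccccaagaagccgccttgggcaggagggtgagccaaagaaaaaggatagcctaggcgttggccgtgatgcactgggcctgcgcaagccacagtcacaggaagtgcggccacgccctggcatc
Tdrd12, chr7:35537716-35537965, minus strand: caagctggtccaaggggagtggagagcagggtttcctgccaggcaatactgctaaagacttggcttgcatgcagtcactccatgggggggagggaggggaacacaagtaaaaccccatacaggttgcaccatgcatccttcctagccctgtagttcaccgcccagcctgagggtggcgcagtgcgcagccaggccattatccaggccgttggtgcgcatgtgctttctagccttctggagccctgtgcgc

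An E-box was found in 5 of the 9 members with a window. In Mael it began 223 bases before the start, and in Mov10l1 246 bases before it. The other three were Ddx4, Tdrd9 and Tdrd1, whose matches are given with their flanking bases.
Ddx4, 29 bases before the start: cgtccgcccgCACGTGcagccgttta
Tdrd9, 165 bases before the start: tctccataaaCACGTGcctgtccagg
Tdrd9, 95 bases before the start: acgaggctccCACGTGcatgcagggc
Tdrd1, 77 bases before the start that follows chr19:56826025-56826274: gggctgcgcgCACGTGggagtaaact
Counted by window, 6 of the 12 held it, against 6.02% of 32851 RefSeq windows of this length, and counted by gene it was found in 6.86% of 27025 genes. The Tdrd1 windows that held it overlap and share the same site, so the count by window includes that site more than once. The E2F6-type letters were found in Mael, 143 bases before the start, and in Ddx4, 136 bases before it, 2 of 9 genes, against 18.8% of all genes. Mael and Ddx4 held both sets of letters. CpG dinucleotides numbered 18 in the Mael window, 19 in that of Mov10l1, 7 in that of Gtsf1 and 6 in the printed window of Tdrd12. In the windows not printed in full they numbered 31 in Ddx4, 19 in Tdrkh, 15 in Asz1 and 8 in Tdrd9. The Tdrd1 windows held 11, 22 and 3, and the other Tdrd12 window 5. The median over all windows was 6, and counts above it were found in genes called higher, called lower and not called. The matches describe these letters only, and binding of any factor was not measured. The E-box was present in genes that were called higher (Mael and Mov10l1), in a gene that was called lower (Tdrd1) and in genes that were not called (Ddx4 and Tdrd9).

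Among the 10 members, Mael and Mov10l1 rose in DKO, Tdrd12, Gtsf1, Tdrd1 and Asz1 fell, and Tdrkh, Ddx4, Tdrd9 and Piwil2 were not called. All 10 passed the filter on low counts, with at least 57 counts in every library. The 2 members called higher were 20.0% of the list, near the 17.3% of all genes tested, and the 4 called lower were 40.0%, against 7.41%. The median log2 fold change of the members was -0.40, against 0.04 for all genes tested, and -0.22 against 0.20 when libraries were scaled by their totals. The CPM values of DKO and SKO did not overlap for 2 members with DKO above (24.7% of all genes) and for 5 with DKO below (19.6% of all genes). The number called lower fell to 2 without DKO replicate 2, where 8.66% of all genes were called lower. It was also 2 under a stricter filter on low counts, where the share of all genes was 7.52%. It fell to 2 as well when any of the 3 SKO libraries was left out, where the share of all genes fell to 2.81% to 3.35%. In these RNA pools, a smaller contribution of some cells and less RNA per cell cannot be told apart.

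**Figure D1:**
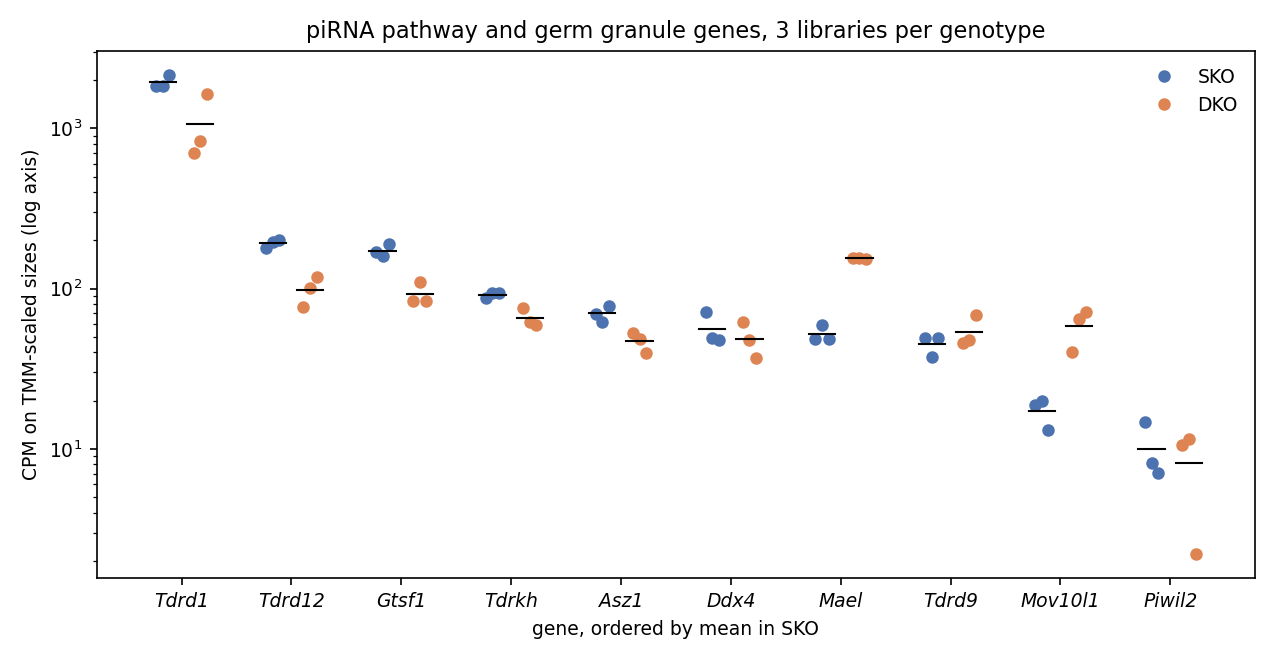
CPM of each member (log axis) in the 3 SKO and 3 DKO libraries, with dots for libraries and a black line for the mean. The DKO dots of Mael lie close together near 154 CPM, above all SKO dots, whereas the DKO dots of Tdrd1 spread from 701 to 1648 CPM.

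Markers of other cell types of the ovary were measured in the same libraries. Of the granulosa and cumulus markers, 13 of 17 were tested, 6 were higher (46.2%, against 17.3% of all genes) and 1 lower (7.69%, against 7.41%), with a summed level of 111.8 to 136.3 CPM in SKO and 193.5 to 228.0 CPM in DKO. Nr5a2 and Cyp19a1 led this sum in SKO, Fshr went from 0.506 to 30.7 CPM, Ptx3 was at 0 in every library and Foxl2 was below the filter. Of the theca, stroma and endothelium markers, 11 of 15 were tested, 6 were higher (54.5%, against 17.3% of all genes) and 1 lower (9.09%, against 7.41%). Their summed level was 129.6 to 174.1 CPM in SKO and 151.4 to 164.6 CPM in DKO. Pecam1, Tek and Cyp11a1 led this sum, and Pecam1, the lower gene, was at 109.6 CPM in SKO and 61.0 CPM in DKO. Most of the higher genes were at low levels, such as Pdgfra, at 0.766 and 4.99 CPM, and Dcn, at 0.519 and 3.43 CPM. Of the blood and immune markers, 4 were at 0 in all libraries, and Cd68 and Alas2 were not called, at 2.02 and 1.41 CPM in SKO and 2.47 and 1.17 CPM in DKO. The lower sum of the oocyte markers in DKO and the higher calls of some granulosa, theca, stroma and endothelium markers came from the same libraries as the member calls. Their part in the calls of the members, which went in both directions, was not tested.

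The direction in which genes were called went along with their level in SKO oocytes. That level is also part of the fold change, so level and direction are not independent. Of the 2374 genes at 100 CPM or more in SKO, 2.23% were called higher and 18.8% lower, and the 3 members at that level, Tdrd1, Tdrd12 and Gtsf1, were all called lower. Of the 5567 genes from 10 to 100 CPM, 9.18% were called higher and 9.66% lower. Of the 7 members at that level, 2 were called higher and 1 lower. No member was below 10 CPM in SKO, the level at which 29.0% of genes were called higher and 1.68% lower. A gene at that level can pass the filter through its DKO counts alone.

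Piwil2 encodes the PIWI protein MILI, which binds piRNAs and cuts transposon transcripts (chromosome 14, 70372477 to 70436898, minus strand, GRCm38). It was the least abundant member, at 14.8, 8.20 and 7.03 CPM in SKO replicates 1 to 3 and 10.5, 11.6 and 2.21 CPM in DKO replicates 1 to 3. The groups overlapped, and DKO replicate 3 was the lowest library with 57 counts. The log2 fold change was -0.31 (95% interval -1.51 to 0.89, edgeR adjusted p = 0.716), and it was 0.14 without DKO replicate 3 and 0.07 without SKO replicate 1. An interval this wide does not show that the level was the same in both genotypes.

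Mov10l1 encodes an RNA helicase that feeds piRNA precursors into processing (chromosome 15, 88982891 to 89055152, plus strand). Its level was 18.7, 19.9 and 13.1 CPM in the SKO libraries and 40.5, 64.9 and 71.0 CPM in the DKO libraries. Every DKO library lay above every SKO library. The mean rose from 17.2 ± 3.62 to 58.8 ± 16.1 CPM, a 3.42-fold increase (log2 fold change 1.77, SE 0.27, 95% interval 1.18 to 2.37, edgeR adjusted p = 0.00106). The rise was called under all 16 alternative settings.

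Asz1 encodes a scaffold protein on the outer membrane of germ cell mitochondria, and Tdrkh a Tudor protein anchored at the same membrane that takes part in trimming piRNA ends. Asz1 (chromosome 6, 18050964 to 18109061, minus strand) was at 69.6, 62.3 and 78.4 CPM in SKO and at 53.3, 48.5 and 39.8 CPM in DKO. All 3 DKO libraries lay below the SKO libraries, and the mean fell 1.49-fold from 70.1 ± 8.08 to 47.2 ± 6.82 CPM (log2 fold change -0.57, SE 0.19, edgeR adjusted p = 0.0497). This call stood close to the threshold and was kept under 5 of 16 alternative settings, with adjusted p of up to 0.204. It was lost when DKO replicate 2 or 3, or any SKO library, was left out, with log2 fold changes from -0.66 to -0.47 and the same direction throughout.

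Tdrkh (chromosome 3, 94413243 to 94434854, plus strand) was at 87.9, 93.6 and 94.1 CPM in SKO and at 75.4, 61.6 and 59.3 CPM in DKO. The groups did not overlap, with means of 91.9 ± 3.46 and 65.5 ± 8.69 CPM. The log2 fold change of -0.49 (SE 0.17, 95% interval -0.87 to -0.11, edgeR adjusted p = 0.0604) missed the threshold. It passed with DESeq2, with the trend with GC content and length removed, and without DKO replicate 1 (adjusted p = 0.0228 in edgeR). Oaz3 overlaps Tdrkh on the opposite strand at 1.45 CPM in SKO and 1.25 CPM in DKO, and whether counting used the strand is not stated in the labels.

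Gtsf1 encodes a small zinc finger protein that assists PIWI proteins in silencing and in cutting their targets (chromosome 15, 103402458 to 103430445, minus strand). It was at 169.7, 159 and 190.2 CPM in SKO and at 83.9, 110.0 and 83.6 CPM in DKO. Every DKO library lay below every SKO library. The mean fell 1.87-fold, from 173 ± 15.95 to 92.5 ± 15.2 CPM (log2 fold change -0.90, SE 0.18, edgeR adjusted p = 0.00451), and was called lower under all 16 alternative settings. The size of the fall depended on the setting. With the trend with GC content and length removed, the log2 fold change was -0.50 (edgeR adjusted p = 0.0383). With the replicate block added it was -0.52 (edgeR adjusted p = 0.0344).

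Tdrd12 and Tdrd9 encode helicases with Tudor domains that act in piRNA amplification. Tdrd12 (chromosome 7, 35466941 to 35537784, minus strand) was at 179.5, 195.9 and 201.9 CPM in SKO and at 77.1, 100.3 and 118.1 CPM in DKO, with no overlap. The mean fell 1.95-fold, from 192 ± 11.6 to 98.5 ± 20.6 CPM (log2 fold change -0.97, SE 0.19, edgeR adjusted p = 0.00433), and was called lower under all 16 alternative settings. Tdrd9, which acts with the PIWI protein Piwil4 in male germ cells, did not pass the test. Tdrd9 (chromosome 12, 111971488 to 112068854, plus strand) was at 49.2, 37.2 and 49.1 CPM in SKO and at 45.7, 47.7 and 68.4 CPM in DKO. The groups overlapped, and the log2 fold change of 0.26 (95% interval -0.23 to 0.74, edgeR adjusted p = 0.433) was not called.

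Tdrd1 encodes a scaffold with several Tudor domains that binds methylated Piwil2 in germ granules (chromosome 19, 56826171 to 56870012, plus strand). It was the most abundant member, at 1826, 1847 and 2163 CPM in SKO and at 701, 839.9 and 1648 CPM in DKO. All DKO libraries lay below the SKO libraries, but they spread widely, with a coefficient of variation of 48.1% against 9.69% in SKO. The mean was 1945 ± 189 CPM in SKO and 1063 ± 512 CPM in DKO, 1.83-fold lower (log2 fold change -0.87, SE 0.28, edgeR adjusted p = 0.0472). Without DKO replicate 3, the highest of the DKO libraries, the log2 fold change was -1.34 (adjusted p = 0.000394). Without DKO replicate 1, 2 or any SKO library the call was lost, with log2 fold changes from -0.93 to -0.65 and adjusted p from 0.0850 to 0.146.

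Ddx4, the mouse homologue of the germ granule helicase Vasa, is a general marker of germ cells (chromosome 13, 112598333 to 112652633, minus strand). It was at 71.7, 49.5 and 47.5 CPM in SKO and at 61.6, 47.7 and 37.1 CPM in DKO. The ranges overlapped and the means were 56.2 ± 13.4 and 48.8 ± 12.3 CPM (log2 fold change -0.21, 95% interval -0.74 to 0.33, edgeR adjusted p = 0.576). The difference was not called under any of 16 alternative settings.

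Mael encodes Maelstrom, a germ granule protein with an HMG box that is needed for transposon silencing in the testis (chromosome 1, 166201385 to 166238744, minus strand). It was at 48.8, 58.9 and 48.5 CPM in SKO and at 155, 155 and 153 CPM in DKO. The DKO libraries were all higher and differed little among themselves, with a coefficient of variation of 0.919% against 11.4% in SKO. The mean rose 2.96-fold, from 52.1 ± 5.92 to 154 ± 1.42 CPM (log2 fold change 1.57, SE 0.16, 95% interval 1.202 to 1.93, edgeR adjusted p = 0.000114). The rise was called under all 16 alternative settings with adjusted p of at most 0.00155.

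Summed over the 10 genes, the level was 2536, 2531 and 2893 CPM in SKO replicates 1 to 3 and 1304, 1487 and 2280 CPM in DKO replicates 1 to 3. Tdrd1 made up 72.01% to 74.8% of this sum in SKO. In DKO it made up 53.8%, 56.5% and 72.3%, the last in replicate 3, the DKO library with the highest sum.

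On the scale of RPKM, which divides CPM by the deposited gene length, the order of levels in SKO was Tdrd1 at 357, Gtsf1 at 239, Tdrd12 at 119, Asz1 at 40.3, Mael at 33.7, Tdrkh at 22.5, Ddx4 at 19.7, Tdrd9 at 9.38, Mov10l1 at 4.20 and Piwil2 at 2.04. The ranges of the libraries overlapped between Asz1 and Mael and between Tdrkh and Ddx4, and every other neighbouring pair was separated. In DKO the order was Tdrd1 at 195 RPKM, Gtsf1 at 128, Mael at 99.8, Tdrd12 at 60.8, Asz1 at 27.1, Ddx4 at 17.1, Tdrkh at 16.04, Mov10l1 at 14.4, Tdrd9 at 11.2 and Piwil2 at 1.65. On the deposited lengths Mael moved up the order by 2 places, above Tdrd12 and Asz1, and Mov10l1 came into the range of Ddx4, Tdrkh and Tdrd9. In DKO the ranges overlapped between Tdrd1 and Gtsf1, Ddx4 and Tdrkh, Tdrkh and Mov10l1, and Mov10l1 and Tdrd9, and the other neighbouring pairs were separated. The deposited length of Tdrd12 was 1621 bases, whereas its longest GENCODE transcript has 3651, and with that length its level would be 52.7 RPKM in SKO and 27.0 RPKM in DKO. The order in SKO also depends on the length for other genes. With the longest transcripts Mael would be at 30.8 RPKM in SKO, above Asz1 at 29.9. Ddx4 would be at 18.7 RPKM in SKO, above Tdrkh at 16.1.

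**Figure D2:**
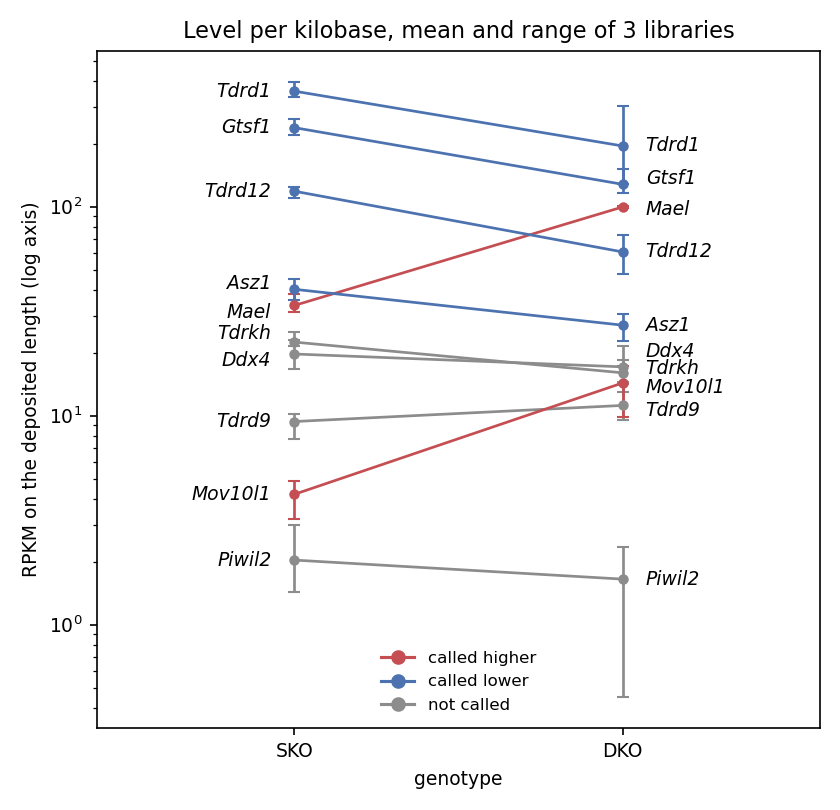
Mean RPKM of each member (log axis) in SKO and DKO, with bars from the lowest to the highest of 3 libraries. The lines of Mael and Mov10l1 rise across others, while Tdrd1, Gtsf1 and Tdrd12 stay in the upper part of the plot.

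Other genes of the piRNA pathway and germ granules were taken from a list of 33, of which 30 had counts listed and 28 were tested. Of these, 3 were called higher in DKO (10.7%, against 17.3% of all genes) and 2 lower (7.14%, against 7.41%), and their median log2 fold change was -0.09. Neither share exceeded that of all genes tested. Btbd18, a nuclear factor needed for transcription of piRNA precursors in the testis, rose from 1.29, 0.553 and 0.123 CPM in SKO to 18.4, 33.0 and 39.5 CPM in DKO (edgeR adjusted p = 0.000179, log2 fold change 5.51 with an SE of 0.62). Tdrd6, a Tudor protein of the chromatoid body of male germ cells, rose from 1.61 ± 0.918 to 10.3 ± 2.15 CPM (log2 fold change 2.67, edgeR adjusted p = 0.00219). Tdrd7, another Tudor protein of germ granules, rose from 22.9 ± 2.46 to 37.0 ± 5.46 CPM (log2 fold change 0.69, edgeR adjusted p = 0.0379).

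The lower genes of that list were the Tudor protein genes Rnf17, at 182 ± 4.49 CPM in SKO and 126 ± 9.41 CPM in DKO (log2 fold change -0.54, edgeR adjusted p = 0.0271), and Snd1, at 81.4 ± 5.78 and 55.1 ± 2.06 CPM (log2 fold change -0.56, edgeR adjusted p = 0.0307). Snd1 overlaps Lrrc4, which differed by -2.37 CPM, against -26.3 CPM for Snd1. The most abundant genes of the list were not called: Dazl, an RNA-binding regulator of translation, was at 370.1 and 408.9 CPM, Tdrd5 at 376 and 283 CPM, and the chaperone gene Hsp90aa1 at 308 and 285 CPM in SKO and DKO. Among the other PIWI genes, Piwil1 was at 25.2 ± 1.82 CPM in SKO and 37.3 ± 5.79 CPM in DKO (log2 fold change 0.56, edgeR adjusted p = 0.0719), and Piwil4 was below the filter. Calls for Tdrd7, Rnf17 and Snd1 were kept under 10, 11 and 11 of the 16 alternative settings, and those for Btbd18 and Tdrd6 under all 16.

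**Figure D3:**
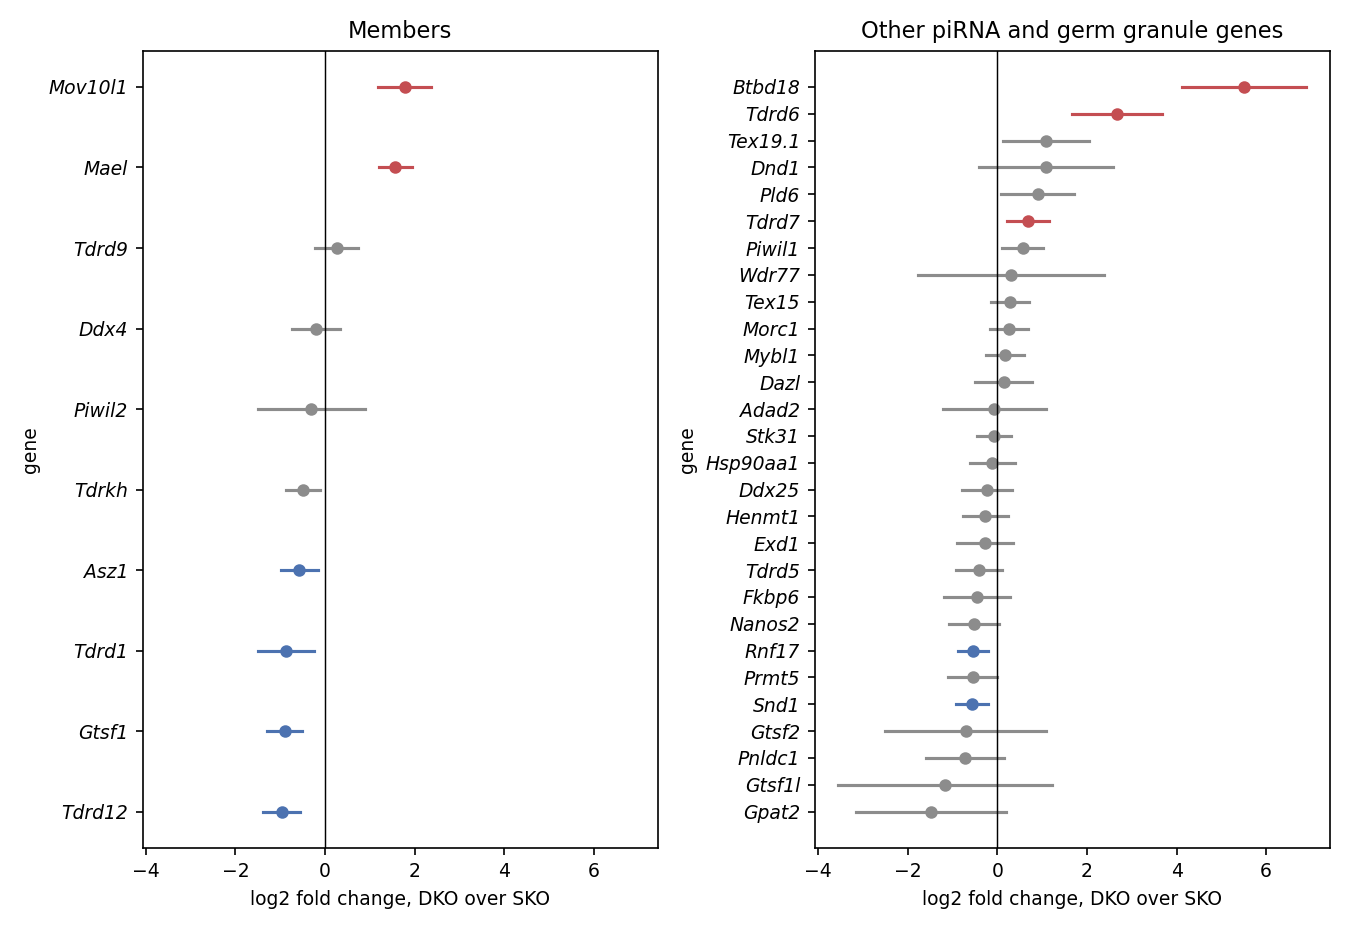
Log2 fold change of DKO over SKO with its 95% interval for the 10 members and the 28 other tested genes of the pathway, with red for genes called higher, blue for genes called lower and grey for the rest. The interval of Btbd18 lies farthest to the side of DKO, at 4.13 to 6.90, and the widest interval among the members is that of Piwil2, -1.51 to 0.89.

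The other small RNA pathways of the oocyte were covered by 13 genes of the small interfering RNA and microRNA machinery, all tested, of which 3 were higher (23.1%, against 17.3% of all genes) and 1 lower (7.69%, against 7.41%). Both shares were near those of all genes tested. Ago1, an Argonaute that binds microRNAs, rose from 1.97, 2.49 and 1.77 CPM to 61.0, 77.5 and 62.7 CPM (edgeR adjusted p = 1.35e-06, log2 fold change 5.01 with an SE of 0.25). Prkra, a partner of Dicer, rose from 0.586 ± 0.418 to 4.13 ± 0.881 CPM (edgeR adjusted p = 0.00558). Tnrc6a, a scaffold of microRNA silencing, rose from 52.6 ± 11.7 to 88.6 ± 4.80 CPM (edgeR adjusted p = 0.0197). Xpo5, which exports microRNA precursors from the nucleus, fell from 104 ± 10.4 to 66.9 ± 14.3 CPM (edgeR adjusted p = 0.0398). Dicer1, the nuclease shared by both pathways, was at 1343 ± 58.3 CPM in SKO and 1510 ± 104 CPM in DKO and was not called (edgeR adjusted p = 0.433), nor were Tnrc6b and Tnrc6c.

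Of the PRC1.6 list, 14 of 15 genes were tested. By edgeR 0 were called higher, against 17.3% of all genes, and 1, the deleted Rnf2, was called lower (7.14%, against 7.41%). At an unadjusted p under 0.05 in edgeR, 1 was higher and 2 were lower. DESeq2 called 0 higher and 2 lower, and limma-voom 0 higher and 1 lower. Max was at 480.0 ± 56.8 CPM in SKO and 521 ± 120 CPM in DKO, Pcgf6 at 351 ± 36.1 and 344 ± 11.7 CPM, and Mga at 225 ± 29.0 and 324 ± 94.1 CPM, the last with an edgeR adjusted p of 0.104. L3mbtl2 was at 74.9 ± 10.5 CPM in SKO and 50.5 ± 10.7 CPM in DKO (log2 fold change -0.57, edgeR adjusted p = 0.0703). Every DKO library of L3mbtl2 lay below every SKO library, and it was called under 4 of 16 alternative settings. E2f6 was low, at 4.97 ± 0.545 and 5.26 ± 2.71 CPM.

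Within 50 kb of the members lay 28 other tested genes, of which 3 were higher (10.7%, against 17.3% of all genes) and 5 lower (17.9%, against 7.41%). The nearest called neighbour of Mael was Ildr2, 15.3 kb upstream on the opposite strand, which rose from 0.133 to 13.1 CPM (edgeR adjusted p = 0.000116, log2 fold change 6.62 with an SE of 0.70). Its SKO level was near that of 3 counts per library, so the size of this fold change is uncertain. Gpa33, on the other side of Mael, was at 7.51 CPM in SKO and 8.34 CPM in DKO. Mlc1 starts 198 bases upstream of Mov10l1 on the opposite strand and was at 0.183 and 1.28 CPM, a difference that missed the threshold (edgeR adjusted p = 0.0692). None of the other 4 tested neighbours of Mov10l1 was called.

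Among the lower members, Gtsf1 had neighbours called in either direction, and Tdrd12 had neighbours called lower only. Itga5, 35.7 kb downstream of Gtsf1, rose from 2.21 to 40.7 CPM, whereas Nckap1l, 23.3 kb upstream of it, fell from 35.5 to 23.2 CPM. Beside Tdrd12, Slc7a9 fell from 2.52 to 0.134 CPM at a distance of 0.907 kb, and Ankrd27 from 188 to 119 CPM at 48.4 kb. The DKO level of Slc7a9 was near that of 3 counts per library, so the size of its fall is uncertain. Next to members that were not called, Slc39a14 rose near Piwil2, Il31ra fell near Ddx4, and Celf3 fell near Tdrkh from 12.5 to 2.16 CPM. Neither Tdrd1 nor Tdrd9 had a called neighbour, and Asz1 had no tested gene within 50 kb.

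**Figure D4:**
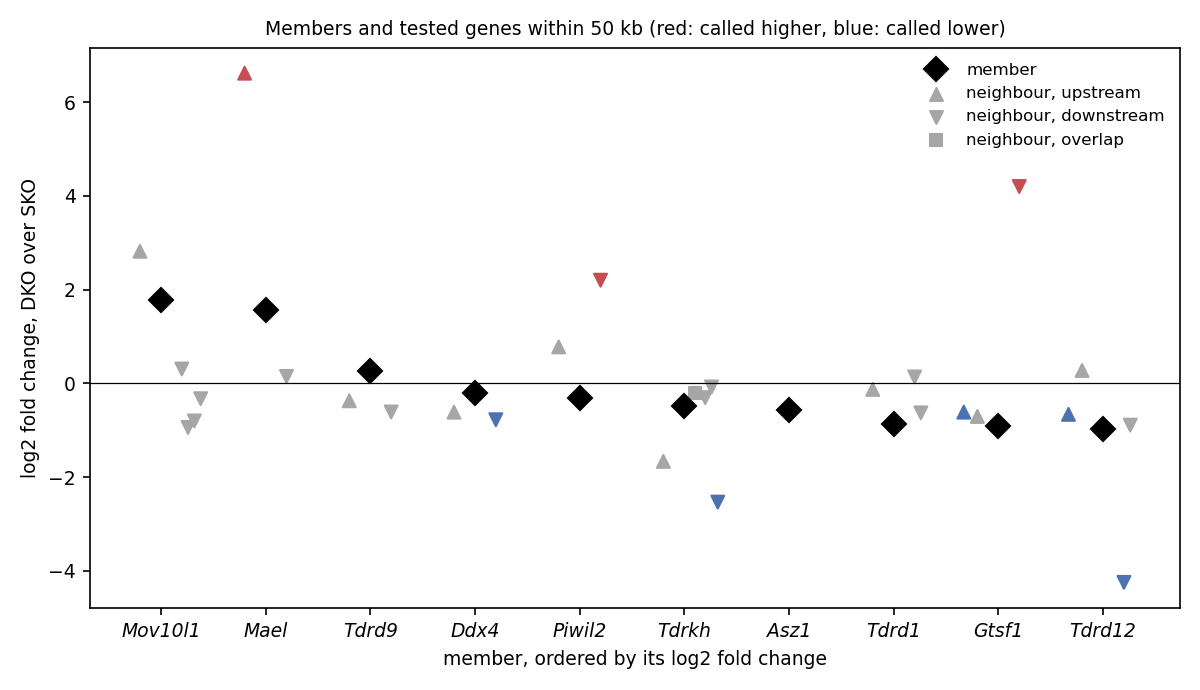
Log2 fold change of each member (black diamonds) and of the tested genes within 50 kb of it (triangles for upstream and downstream, squares for overlapping genes), with red for genes called higher and blue for genes called lower. Sideways spacing separates the symbols and is not distance. Ildr2 near Mael stands at 6.62, with an SKO level near that of 3 counts per library.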

How the data were processed

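RNA of 15 GV oocytes per mouse was amplified and sequenced in 3 DKO and 3 SKO libraries. Reads were aligned with STAR 2.5.0a, with GRCm38 (mm10) as the build, per the submitters' processing notes; the counting tool, annotation and strand setting were not given in the sources used here. The deposited values are raw read counts per gene, with the authors' gene lengths.

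From these counts, CPM were computed on TMM-scaled library sizes, and RPKM on the deposited length. edgeR 4.0.16 (R 4.3.3) was run on all genes with filterByExpr (minimum count 10, minimum total 15) and the two-sided quasi-likelihood test of DKO against SKO with Benjamini-Hochberg adjustment; calls have an adjusted p under 0.05. Standard errors come from the F statistic. Symbols were found in RefSeq for 24387 of 24421 identifiers. The members and lists were chosen with earlier results of these data known. All members are named, as are the called genes of the piRNA, small RNA and PRC1.6 lists. The 3 most abundant genes of each other list and the called neighbours within 50 kb are named too. Not every called marker gene is named, nor every neighbour that was not called. Of 130 list entries 4 were not found. A blood marker of these lists is not reported here. Alternatives used DESeq2 1.42.0, limma-voom 3.58.1, other scalings and filters, the replicate number, GC content and length, thinned libraries and each library left out. On simulated counts for DKO against SKO (13741 genes), edgeR called 100% of genes changed by 2 on the log2 scale and 40% to 42% of those changed by 1. The simulated spread between libraries was common to all genes and set from SKO alone, with 50 genes changed at each size. These rates may therefore not hold for the measured DKO libraries.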

Additional observations from a re-analysis of the deposited data

How the results depend on the processing

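Directions of all members but Piwil2 were the same under all 16 alternatives, and Mael, Mov10l1, Tdrd12 and Gtsf1 stayed called under each. Piwil2 reversed to 0.07 without SKO replicate 1 and 0.14 without DKO replicate 3 (range -0.67 to 0.14 when a library was left out). The cause of the following changes was not tested. Tdrd1 was not called under the stricter filter (-0.85) and ranged from -1.34 to -0.65 with a library left out. Asz1 was not called with library totals (-0.40), the stricter filter (-0.55), the replicate block (-0.57), GC content and length (-0.44), both together (-0.46) or thinned libraries (-0.56), and ranged from -0.67 to -0.47. Tdrkh was called with DESeq2 (-0.50), GC content and length (-0.54) and the block with them (-0.54), and ranged from -0.61 to -0.43. Of the members, 2 were lower under the stricter filter, against 7.52% of all genes. With a library left out 2 to 4 were lower, against 2.81% to 9.83% of all genes.

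All genes called lower numbered 596 with library totals, 1731 under the block with GC content and length, and 434 to 1501 with a library left out, against 1100. Of the other piRNA genes, 5 were higher in DESeq2 and 2 to 5 with a library left out, and 0 were lower with library totals and 0 to 3 with a library left out. Of the small interfering RNA and microRNA genes, 0 were lower with library totals, 2 under the block with GC content and length, and 0 to 1 with a library left out. Of the PRC1.6 genes, 1 was higher with library totals and with GC content and length, 2 were lower in DESeq2, with GC content and length and with the block added, and with a library left out 0 to 1 were higher and 1 to 2 lower.

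The labels do not say whether libraries with the same replicate number were handled together. Deviations of same-numbered libraries correlated at 0.14, 0.08 and 0.05, each library best with its own number. The replicate block gave 2651 genes higher and 1364 lower. Under it Tdrd1 stood at -0.97 (edgeR adjusted p = 0.00358), and Asz1 lost its call. With libraries thinned to 15521975 counts, Asz1 lost its call and no other member's call changed.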
